A study of Sus scrofa with 30 samples.

Results

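The genes followed here encode the enzymes that break down glucose: glycolysis with 2 of the kinases that regulate it, the pentose phosphate pathway, the citrate cycle, and the step at which pyruvate enters the mitochondrion. They were chosen as a list of 43 gene symbols and matched to NCBI gene identifiers, and 42 of the 43 were among the 13103 genes counted in all embryos. Glycolysis had 18 of its 19 listed genes in the table, pyruvate entry 6 of 6, the pentose phosphate pathway 6 of 6 and the citrate cycle 12 of 12. ENO2, the neuronal enolase, was the listed gene that the table did not hold.

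The data are RNA-seq read counts of 30 single pig embryos taken 8, 10 or 12 days after insemination, and every day has 5 female and 5 male embryos. The mothers, 4 per day, were German Landrace × Pietrain gilts whose cycles had been synchronized with altrenogest, PMSG and human chorionic gonadotropin, and 1 Pietrain boar sired all embryos. Each library came from a whole embryo, disc and trophectoderm together, at ages at which pig blastocysts hatch, grow into spheres and lengthen into filaments. Which embryos were littermates is unknown, so the tests treat them as separate and p-values measure the spread between these embryos.

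Glycolysis splits glucose into pyruvate in the cytosol and yields ATP and NADH, and lactate dehydrogenase can turn the pyruvate into lactate. The pyruvate dehydrogenase complex feeds pyruvate into the citrate cycle as acetyl-CoA, kinases (PDK) switch that complex off, and pyruvate carboxylase supplies oxaloacetate instead. The pentose phosphate pathway diverts glucose 6-phosphate to NADPH and ribose 5-phosphate for nucleotides. Blastocysts of many mammals take up glucose and release lactate, and their trophectoderm does most of the active transport that fills the cavity.

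Total counts per embryo ran from 6068212 to 34002508, and the smallest library was that of the Day 12 female d12_f_245. Levels are CPM, counts relative to the library total after scaling with TMM factors, and 3 counts equal at most 0.434 CPM. The 6 trophectoderm markers summed to 21005 to 25454 CPM on Day 8, 34866 to 51738 on Day 10 and 8973 to 26578 on Day 12. The 5 hypoblast markers in the table (TTR was not in it) summed to 671 to 1513, 729.5 to 1397 and 1264 to 6543, and the 6 epiblast markers to 33.7 to 54.2, 19.6 to 31.5 and 3.61 to 6.93. The 3 blood markers in the table summed to 36.3 to 50.7, 30.7 to 41.6 and 26.2 to 73.5, and PTPRC and CD3E were not in it. Of 6 endometrial markers 2 were in the table, with sums of 0 to 2.002, 0.147 to 4.70 and 0.754 to 6.03, and PGR, HOXA11, CD34 and VWF were not. In whole embryos, fewer cells of a type and less RNA per cell cannot be told apart, and the part of these markers in the results below was not tested.

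On Day 10 the differentially expressed genes (DEG) were a regulator of glycolysis, genes at the entry of pyruvate, and SUCLG2 and the cytosolic IDH1 and MDH1 of the citrate cycle list. On Day 12 most called genes of glycolysis were higher. A DEG between days had an adjusted p (FDR) below 0.001 in the edgeR quasi-likelihood F test over all genes, and its log2 fold change exceeded 1 in size. From Day 8 to Day 10, 6 of the 42 members were higher DEG (9.88% of all genes) and 1 was lower (4.2% of all genes). From Day 10 to Day 12, 6 were higher (14.9% of all genes) and 5 lower (8.39%). The net change from Day 8 to Day 12, which uses the same embryos, gave 6 higher (22% of all genes) and 4 lower (10.4%). At an FDR under 0.001 and any fold size, 11 members were higher and 6 lower on Day 10 than on Day 8, against 16.6% and 14.8% of all genes. From Day 10 to Day 12 the same rule gave 12 higher and 10 lower, against 21.4% and 16.6%, and from Day 8 to Day 12 it gave 17 and 7, against 30.3% and 24.5%. The median log2 fold change of the 42 members was 0.22, -0.02 and 0.33 for the 3 comparisons, and that of all genes was 0.03, 0.04 and 0.09. Scaling to library size alone moved the median of all genes to -0.15 from Day 8 to Day 10 and to 0.24 from Day 10 to Day 12, and the DEG among the members to 3 higher and 2 lower and to 8 higher and 3 lower. Over all 13103 genes the DEG under that scaling were 1027 higher and 811 lower, then 2396 higher and 891 lower. With TMM factors they were 1295 and 550, then 1951 and 1099.

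**Figure D1:**
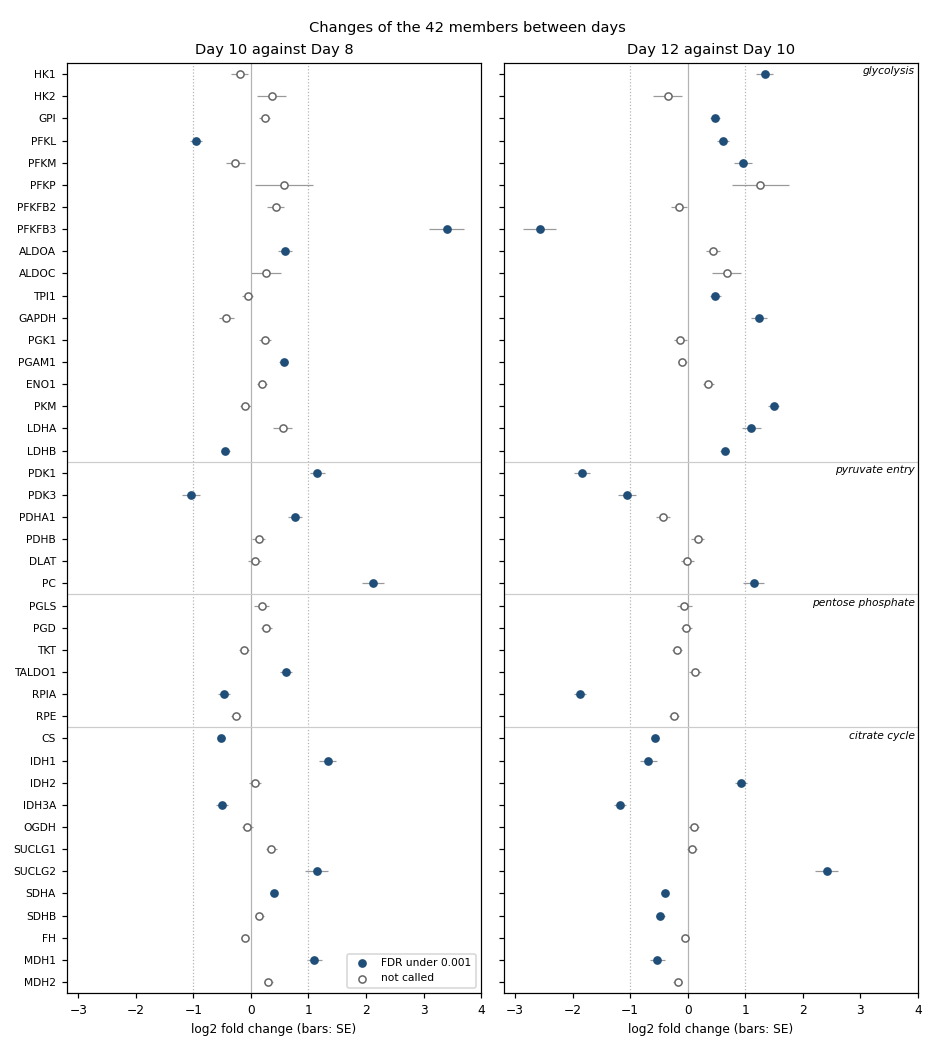
The log2 fold change of each of the 42 members (points, bars are SE) from Day 8 to Day 10 and from Day 10 to Day 12, grouped by arm, with dotted lines at a log2 fold change of 1 in either direction. Filled points passed an FDR under 0.001, 17 of 42 in the first interval and 22 in the second, and PFKFB3 moved from 3.40 to -2.57.

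The arms are given side by side by the any-fold rule, with no test of the difference between them. Over all genes that rule gave 16.6% higher and 14.8% lower from Day 8 to Day 10. From Day 10 to Day 12 it gave 21.4% and 16.6%. In glycolysis 3 of 18 genes were higher and 2 lower on Day 10 than on Day 8, with a median log2 fold change of 0.24, and 9 were higher and 1 lower on Day 12 than on Day 10, with a median of 0.54. In the citrate cycle 4 of 12 were higher and 2 lower on Day 10, with a median of 0.22, and 2 were higher and 6 lower on Day 12, with a median of -0.29. The 4 higher on Day 10 were SUCLG2, SDHA and the cytosolic IDH1 and MDH1. With library size alone the citrate cycle had 2 higher and 2 lower on Day 12, so the excess of lower genes depended on the scaling. The pentose phosphate pathway had 1 of 6 higher and 1 lower on Day 10, 1 lower on Day 12, and medians of 0.03 and -0.13. Under scaling to library size alone the pentose phosphate medians changed sign, to -0.15 and 0.07, while those of glycolysis (0.06 and 0.73) and of the citrate cycle (0.04 and -0.09) did not. Of the 6 genes of pyruvate entry, 3 were higher and 1 lower on Day 10, and 1 was higher and 2 were lower on Day 12.

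Summed over its genes, glycolysis held a median of 5470.3 CPM on Day 8 (4741 to 6064), 5323 on Day 10 (4778 to 6166) and 8363 on Day 12 (7046 to 11773.5). All 10 Day 12 embryos lay above all embryos of the other days. The highest, the Day 12 female d12_f_289, also had the highest CPM of its day for 9 of the 18 genes. GAPDH made up 27.8%, 20.8% and 29.9% of the mean sum, and without it the medians were 3922, 4213 and 6003. Without GAPDH the lowest Day 12 sum, 4795, lay below the highest Day 10 sum, 4972, so those days overlapped. The citrate cycle summed to a median of 4143 CPM on Day 8 (3928 to 4290.2), 4682 on Day 10 (4207 to 5202) and 3773 on Day 12 (2894 to 4392). That sum holds the cytosolic IDH1 and MDH1, both higher on Day 10 than on Day 8, and CS and IDH3A, both lower. No sum was taken without IDH1 and MDH1. The pentose phosphate sums overlapped between all days, with medians of 1243, 1273 and 1178, and TKT alone gave between 49.3% and 57.5% of their mean. Pyruvate entry summed to medians of 918, 1283 and 1095. With library size alone the mean citrate cycle sums of Days 8 and 10 were 4306 and 4296, so the step between them depended on the scaling.

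**Figure D2:**
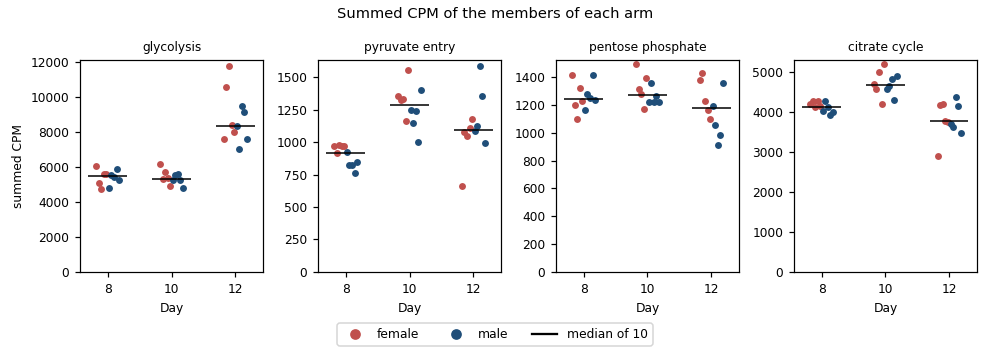
Summed CPM of the members of each arm in each embryo (points, colored by sex) on Days 8, 10 and 12, with lines at the median of 10 embryos. The glycolysis sums of Day 12 lie between 7046 and 11773.5, above the other days, and the lowest citrate cycle sum, 2894, belongs to the Day 12 female d12_f_245.

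Read by direction over both intervals, 16 of the 42 members passed in neither, 2 were higher both times and 4 were lower both times. PC and SUCLG2 were higher in both intervals. PDK3, RPIA, CS and IDH3A were lower in both. PFKFB3, PDK1, IDH1, SDHA and MDH1 were higher on Day 10 and lower again on Day 12, and PFKL and LDHB followed the opposite course. The 8 genes that changed only upward and only in the second interval by this rule were HK1, GPI, PFKM, TPI1, GAPDH, PKM, LDHA and IDH2. The share of all genes with each of these courses was not taken, so the counts do not set the members apart from other genes. That a gene passed in one interval and not in the other is not a test of the difference between the intervals.

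Hexokinase, the entry of glucose into glycolysis, changed through HK1 (NCBI gene 100152344, chromosome 14, 72383328 to 72460927 on Sscrofa11.1), the form bound to mitochondria in most tissues. HK1 had 134 to 183 CPM on Day 8 (median 157), 92.5 to 170.4 on Day 10 (median 130.1) and 159 to 572 on Day 12 (median 328). Days 8 and 10 overlapped widely, and 9 of the 10 Day 12 embryos lay above all embryos of Day 10. The log2 fold change was -0.20 ± 0.15 (SE, FDR 0.255) from Day 8 to Day 10 and 1.34 ± 0.15 (FDR 3.59e-09) from Day 10 to Day 12. HK2, the insulin-regulated form, had medians of 13.003, 17.4 and 12.9 CPM and passed in neither interval (FDR 0.225 and 0.239), and its range on Day 12, from 2.46 to 25.2, was wider than on the other days.

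PFKFB3 (NCBI gene 100516289, chromosome 10, 64776315 to 64859118) makes fructose 2,6-bisphosphate, the strongest activator of phosphofructokinase. It had 1.58 to 10.2 CPM on Day 8 (median 3.82), 28.4 to 68.2 on Day 10 (median 55.7) and 5.64 to 16.6 on Day 12 (median 6.89). Every Day 10 embryo was above every embryo of both other days, while Days 8 and 12 overlapped. The gene was 10.6-fold higher on Day 10 than on Day 8 (log2 fold change 3.40 ± 0.30, FDR 7.91e-11) and 5.93-fold lower on Day 12 than on Day 10 (-2.57 ± 0.29, FDR 4.21e-09). Its partner PFKFB2 had medians of 22.9, 30.3 and 27.4 CPM and passed in neither interval.

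Phosphofructokinase itself, the committed step, moved the other way on Day 10. The liver subunit PFKL had 149 to 191 CPM on Day 8 (median 167), 67.4 to 106 on Day 10 (median 87.8) and 87.1 to 191 on Day 12 (median 129.7). Days 8 and 10 did not overlap, and Day 12 overlapped both. PFKL was 1.93-fold lower on Day 10 (log2 fold change -0.95 ± 0.10, FDR 5.59e-09), just short of the fold needed for a DEG, and higher again on Day 12 (0.61 ± 0.10, FDR 7.08e-06). The muscle subunit PFKM rose on Day 12 by a log2 fold change of 0.96 ± 0.16 (FDR 4.64e-06), also just short of the fold, from a median of 6.42 to 14.1 CPM, and was a DEG (12 members called) when the Day 12 female d12_f_245 was left out.

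Below phosphofructokinase, ALDOA, GAPDH, PKM and LDHA were higher DEG on Day 12 than on 1 or both of the earlier days. ALDOA, the aldolase that splits fructose 1,6-bisphosphate (NCBI gene 110260081, chromosome 3, 18246036 to 18260167), had 262 to 342 CPM on Day 8 (median 301), 333.1 to 554 on Day 10 (median 482) and 443 to 1037 on Day 12 (median 596). The Day 12 embryos lay above all Day 8 embryos, with a net log2 fold change of 1.04 ± 0.12 (FDR 4.15e-09). It was 0.997 without the Day 12 female d12_f_271 and 0.93 without d12_f_289, under the fold for a DEG. GAPDH, which reduces NAD (NCBI gene 396823, chromosome 5, 64129678 to 64135194), had 1113 to 1952 CPM on Day 8 (median 1482), 722 to 1507 on Day 10 (median 1109.7) and 1846 to 3733 on Day 12 (median 2469.6). Day 12 lay above Day 10 without overlap, at a log2 fold change of 1.23 ± 0.14 (FDR 5.27e-09). GAPDH has processed copies in mammalian genomes, and how reads shared with such copies were counted is not stated.

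PKM (NCBI gene 100158154, chromosome 7, 60971807 to 61032780), the pyruvate kinase that ends glycolysis, had 379.9 to 495 CPM on Day 8 (median 445), 314 to 492 on Day 10 (median 428) and 843 to 1528 on Day 12 (median 1163). Days 8 and 10 lay on each other and Day 12 stood above both. The gene was 2.81-fold higher on Day 12 than on Day 10 (log2 fold change 1.49 ± 0.10, FDR 7.22e-14), and the counts do not separate its M1 and M2 forms. LDHA (NCBI gene 407245, chromosome 2, 40814163 to 40827284), the lactate dehydrogenase subunit common in tissues that release lactate, had 81.6 to 120.1 CPM on Day 8 (median 101), 122 to 168 on Day 10 (median 149) and 153 to 603 on Day 12 (median 307.5). Day 10 lay just above Day 8 without overlap, yet the step missed the FDR limit (0.55 ± 0.16, FDR 0.0038), and Day 12 ran from within the Day 10 range upward. From Day 10 to Day 12 the log2 fold change was 1.11 ± 0.16 (FDR 4.40e-07), and it fell to 0.95 without the Day 12 female d12_f_289. From Day 8 to Day 12, LDHA was 3.15-fold higher (1.66 ± 0.16, FDR 1.34e-10).

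LDHB, the subunit common in tissues that burn lactate, had 705 to 813 CPM on Day 8 (median 737), 416 to 615 on Day 10 (median 533) and 627 to 1028 on Day 12 (median 839.9). Day 10 lay below both other days without overlap. The log2 fold change was -0.45 ± 0.08 (FDR 1.48e-05) from Day 8 to Day 10 and 0.65 ± 0.08 (FDR 1.96e-08) from Day 10 to Day 12. This gene is the LDHB of chromosome 5 (NCBI gene 102161427, 51810932 to 51831218), and a second, short gene on chromosome 2 (NCBI gene 100621540, 12988754 to 12990033) has the same symbol, so reads that both could match are uncertain. The remaining genes of glycolysis called in some interval were GPI, TPI1 and PGAM1, and ENO1 was called only from Day 8 to Day 12, as higher. PGAM1 rose from Day 8 to Day 10 by 0.57 ± 0.08 (FDR 3.57e-07), and GPI and TPI1 each rose from Day 10 to Day 12 by 0.48, with FDR of 5.16e-05 and 8.35e-05.

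**Figure D3:**
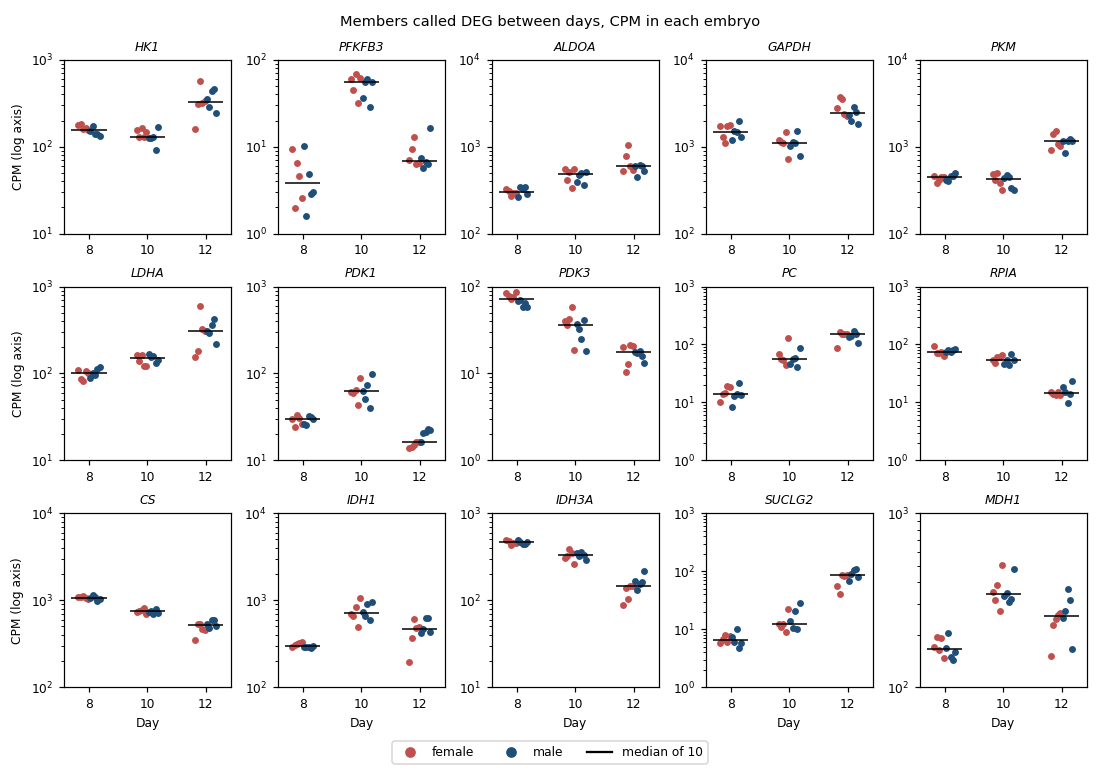
CPM on a log axis in each embryo (points, colored by sex; lines are medians of 10) for the 15 members called DEG in any comparison of days. PFKFB3 stands apart on Day 10 at 28.4 to 68.2 CPM, PC and SUCLG2 climb through all 3 days, and PDK3, RPIA, CS and IDH3A step down.

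At the entry of pyruvate the kinases and pyruvate carboxylase moved, and the complex they surround moved less. PC (NCBI gene 397630, chromosome 2, 5566608 to 5587797), which makes oxaloacetate from pyruvate, had 8.45 to 21.8 CPM on Day 8 (median 13.9), 40.5 to 128 on Day 10 (median 56.8) and 88.7 to 174 on Day 12 (median 150.3). Day 8 lay below both later days, and 1 embryo of Day 10 reached into the range of Day 12. PC was 4.35-fold higher on Day 10 than on Day 8 (log2 fold change 2.12 ± 0.19, FDR 7.33e-11) and 2.21-fold higher on Day 12 than on Day 10 (1.14 ± 0.18, FDR 1.92e-06), a net 9.62-fold.

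PDK1 (NCBI gene 100286871, chromosome 15, 78608394 to 78650958), a kinase that inhibits pyruvate dehydrogenase and is a known target of hypoxia-inducible factor, had 24.1 to 33.4 CPM on Day 8 (median 29.7), 40.1 to 98.3 on Day 10 (median 62.2) and 13.9 to 23.2 on Day 12 (median 16.4). The 3 days did not overlap. PDK1 was 2.23-fold higher on Day 10 (1.16 ± 0.13, FDR 1.97e-08) and then 3.57-fold lower on Day 12 (-1.84 ± 0.14, FDR 6.70e-13), which left it below Day 8 (-0.68 ± 0.13, FDR 4.09e-05).

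PDK3 (NCBI gene 100153858, chromosome X, 20486205 to 20598492), another kinase of the family, fell throughout. It had 58.8 to 86.8 CPM on Day 8 (median 71.2), 18.2 to 58.8 on Day 10 (median 36.6) and 10.4 to 21.0 on Day 12 (median 17.5). Neighbouring days overlapped at their edges, and Days 8 and 12 did not overlap. Its log2 fold change was -1.04 ± 0.16 (FDR 2.69e-06) and then -1.06 ± 0.16 (FDR 1.68e-06), a net 4.29-fold fall. Both steps lie close to the fold for a DEG, and the first became -0.97 without d10_f_454 or d10_m_453 and -0.998 without d10_m_333, the second -0.94 without d10_f_433 and -0.998 without d12_f_271. PDHA1, the catalytic subunit of pyruvate dehydrogenase, rose from a median of 440.1 to 730.4 CPM on Day 10 (0.77 ± 0.12, FDR 4.03e-06), and PDHB and DLAT, its other subunits in the list, passed in no comparison.

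In the pentose phosphate pathway the change lay in RPIA (NCBI gene 100038014, chromosome 3, 57355973 to 57386948), the isomerase that makes ribose 5-phosphate. It had 63.9 to 95.8 CPM on Day 8 (median 74.6), 45.1 to 68.5 on Day 10 (median 53.6) and 9.76 to 23.4 on Day 12 (median 14.5). Days 8 and 10 overlapped and Day 12 lay below both. RPIA fell by a log2 fold change of -0.47 ± 0.11 (FDR 0.000439) and then of -1.87 ± 0.11 (FDR 3.50e-15), a net 5.08-fold. TALDO1, the transaldolase, was higher on Day 10 (0.61 ± 0.10, FDR 1.27e-05), RPE was lower on Day 12 than on Day 8 (-0.50 ± 0.09, FDR 7.83e-06), and PGLS, PGD and TKT passed in no comparison.

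The citrate cycle held the largest net rise from Day 8 to Day 12 among the members, that of SUCLG2, and falls of CS and IDH3A at both steps. SUCLG2 (NCBI gene 397026, chromosome 13, 48650851 to 49090521), the beta subunit of the GDP-forming succinyl-CoA synthetase, had 4.74 to 10.2 CPM on Day 8 (median 6.47), 9.09 to 28.8 on Day 10 (median 12.1) and 41.0 to 110.35 on Day 12 (median 84.6). Days 8 and 10 overlapped at the edge and Day 12 lay above both. SUCLG2 rose by 1.14 ± 0.20 (FDR 1.43e-05) and then by 2.42 ± 0.20 (FDR 7.55e-12), a net 11.8-fold, and the first step was 0.99, under the fold, without d10_m_453, whose value was the highest of Day 10. SUCLA2, the beta subunit of the ADP-forming enzyme, is not among the 43 and was picked after its values were seen. It had medians of 453.8, 484 and 122 CPM and fell by -1.97 ± 0.11 from Day 10 to Day 12 (FDR 2.82e-16), and the shared alpha subunit SUCLG1 passed in neither interval. From Day 8 to Day 12 SUCLG1 was called higher at an FDR under 0.001.

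CS (NCBI gene 397519, chromosome 5, 21669778 to 21700737), citrate synthase, had 974 to 1144 CPM on Day 8 (median 1071), 688 to 814 on Day 10 (median 746) and 348 to 592 on Day 12 (median 515). The 3 days did not overlap. CS fell by -0.52 ± 0.07 (FDR 2.24e-07) and by -0.57 ± 0.07 (FDR 2.40e-08), a net 2.13-fold. IDH3A (NCBI gene 100157242, chromosome 7, 47759436 to 47778948), the catalytic subunit of the NAD isocitrate dehydrogenase, had 436 to 497 CPM on Day 8 (median 464), 263 to 393 on Day 10 (median 328) and 87.1 to 215 on Day 12 (median 144). Here too no days overlapped, with steps of -0.50 ± 0.10 (FDR 0.000156) and -1.18 ± 0.10 (FDR 3.38e-11).

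The cytosolic enzymes IDH1, a source of NADPH, and MDH1, of the malate-aspartate shuttle, were highest on Day 10. IDH1 (NCBI gene 102166364, chromosome 15, 111341153 to 111362330) had 285.7 to 328 CPM on Day 8 (median 297.2), 492.8 to 1058 on Day 10 (median 712) and 194 to 631 on Day 12 (median 471). Days 8 and 10 did not overlap, and Day 12 overlapped both. IDH1 was 2.52-fold higher on Day 10 (1.33 ± 0.15, FDR 7.40e-09) and lower on Day 12 than on Day 10 (-0.68 ± 0.14, FDR 0.000153). MDH1 (NCBI gene 396894, chromosome 3, 78247229 to 78263085) had 143 to 204 CPM on Day 8 (median 166), 274.9 to 504.1 on Day 10 (median 342) and 150.5 to 366 on Day 12 (median 255). It rose by 1.10 ± 0.13 (FDR 2.42e-08), with no overlap, and fell by -0.53 ± 0.13 (FDR 0.00072), with wide overlap. The mitochondrial IDH2 took a different course, with medians of 121.02 and 128.6 CPM on Days 8 and 10 and 244 on Day 12 (0.93 ± 0.10 from Day 10, FDR 2.88e-09).

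Of the rest of the cycle, SDHA, the flavoprotein of succinate dehydrogenase, rose by 0.40 on Day 10 (FDR 8.28e-06) and fell by -0.40 on Day 12 (FDR 4.12e-06), and SDHB, its iron-sulfur subunit, fell by -0.48 on Day 12 (FDR 4.40e-06). OGDH, FH and MDH2 passed in no comparison. Both steps of SDHA, the fall of SDHB, the second steps of IDH1 and MDH1 and the first steps of ALDOA and TALDO1 kept their direction but lost the FDR under 0.001 with library size alone.

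Partner enzymes of the same reaction, for IDH and MDH in different compartments, were compared as a ratio within each embryo, in which the scaling of the library cancels. PFKFB2, MDH2 and HK2 passed in no comparison of days, so a ratio that passed need not mean that both partners changed. Of 18 tests (9 pairs, 2 intervals), 12 passed an adjusted p of 0.05 in a two-sided permutation test with 100000 resamples, whose smallest p is 2e-05. The share of other gene pairs that would pass was not taken, so this count does not set the partner enzymes apart. The log2 ratio of PFKFB3 over PFKFB2 was -2.48 ± 0.77 (SD) on Day 8, 0.66 ± 0.33 on Day 10 and -1.73 ± 0.74 on Day 12. All Day 10 embryos lay above all embryos of the other days (permutation test, adjusted p = 4.5e-05 for both steps). LDHA over LDHB rose from -2.90 ± 0.19 to -1.90 ± 0.21 on Day 10 without overlap (adjusted p = 4.5e-05), and its further step to -1.53 ± 0.51 on Day 12 missed the threshold (adjusted p = 0.0647).

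IDH1 over IDH2 rose from 1.28 ± 0.12 to 2.51 ± 0.26 and fell to 0.90 ± 0.70, with no overlap between neighbouring days (permutation test, adjusted p = 4.5e-05 for both). MDH1 over MDH2 rose from -2.34 ± 0.16 to -1.56 ± 0.22 (adjusted p = 4.5e-05) and fell to -1.92 ± 0.29 (adjusted p = 0.00789). Both cytosolic forms thus gained on the mitochondrial forms on Day 10. HK2 over HK1 rose from -3.65 ± 0.20 to -3.09 ± 0.41 (adjusted p = 0.00364) and then dropped to -5.00 ± 0.95 without overlap (adjusted p = 4.5e-05). On Day 12 the females lay at -6.92 to -4.71 and the males at -4.53 to -4.12, and whether the drop differs by sex was not tested. HK2 had only 19 counts in d12_f_245 and 41 in d12_f_271. PFKL over PFKM fell from 4.41 ± 0.26 to 3.72 ± 0.44 on Day 10 (adjusted p = 0.00176).

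PDK3 over PDK1 fell from 1.30 ± 0.29 to -0.92 ± 0.92 on Day 10 and stood at -0.11 ± 0.43 on Day 12. The first step had no overlap (permutation test, adjusted p = 4.5e-05). The second, 0.81 (adjusted p = 0.0297), rested on few embryos and missed the threshold when d10_f_454, d10_m_333, d10_m_453, d12_f_297 or d12_f_299 was left out, with values from 0.64 to 0.76. The ratios of PFKP over PFKM and ALDOC over ALDOA passed in neither interval.

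**Figure D4:**
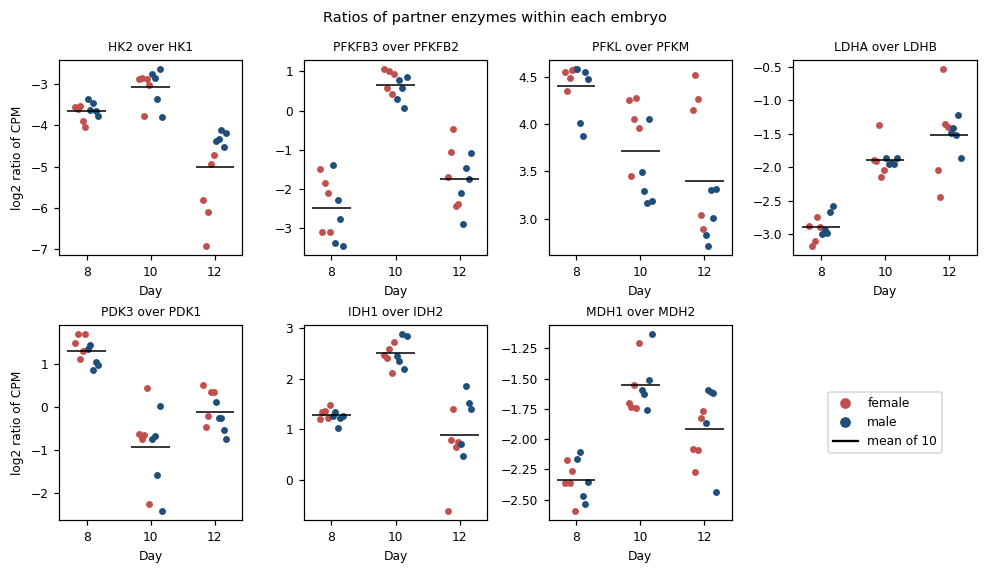
Log2 ratios of CPM (prior count 2) of 7 pairs of partner enzymes in each embryo (points, colored by sex; lines are means of 10) on Days 8, 10 and 12. PFKFB3 over PFKFB2 reaches 0.66 on Day 10 and falls back, IDH1 over IDH2 peaks at 2.51 on Day 10, and HK2 over HK1 reaches -5.00 on Day 12.

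Embryos of one day varied least in these genes on Day 8 and most on Day 12. The median SD of log2 CPM within a day over the 42 members was 0.144, 0.202 and 0.329 for Days 8, 10 and 12, and that of all genes 0.227, 0.286 and 0.453. FH was the most even member on Days 8 and 12, with an SD of 0.0657 and 0.0728, and SUCLG1 on Day 10, with 0.0627. The Day 12 female d12_f_245, the smallest library, was the lowest embryo of its day for 18 of the 42 members, among them 7 of the 12 of the citrate cycle, and the highest for 3 of the 6 of the pentose phosphate pathway. Its TMM factor, 1.139, was also the highest of all embryos. How often it was lowest over all genes was not taken, so these counts do not set the members apart. Without d12_f_245, 12 in place of 11 members were DEG between Days 10 and 12.

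Between the sexes no member was called on any day at an FDR under 0.05 (edgeR quasi-likelihood F test, 5 female and 5 male embryos per day). The calls over all genes were 0.658%, 0.223% and 0.123% on Days 8, 10 and 12. At an unadjusted p under 0.05, 4 of 41 members stood out on Day 8 (all higher in females, against 4.59% of all genes in either direction), 1 of 41 on Day 10 (2.36%) and 5 of 42 on Day 12 (22.7%). With DESeq2 and with the robust GLM of edgeR 2 members were called on Day 8, PDK3 and PDHA1, and 0 on Days 10 and 12. The percentages above are from the quasi-likelihood F test alone. What share of all genes the other methods call is not given here, so their calls of PDK3 and PDHA1 cannot be weighed against it.

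The 3 X-linked members are PGK1, the phosphoglycerate kinase (chromosome X, 62187472 to 62210321), PDK3 and PDHA1 (chromosome X, 15699924 to 15718908). On Day 8 PDHA1 had 449 to 526.2 CPM in female and 318.3 to 432 in male embryos, and PDK3 had 72.7 to 86.8 and 58.8 to 69.8. In both genes all 5 females lay above all 5 males. The log2 difference, female over male, was 0.34 ± 0.08 for PDHA1 (edgeR, FDR 0.143) and 0.32 ± 0.07 for PDK3 (edgeR, FDR 0.121), and PDHA1 was called without d08_m_103. PGK1 had 279.7 to 313 CPM in females and 254 to 290.3 in males, a difference of 0.13 ± 0.06 (edgeR, FDR 0.999).

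On Day 10 the sexes overlapped in all 3 genes, with differences of 0.25 ± 0.14 for PDHA1, 0.34 ± 0.29 for PDK3 and 0.09 ± 0.09 for PGK1. On Day 12 they were -0.26 ± 0.19, 0.08 ± 0.21 and -0.14 ± 0.22, and that of PGK1 was 0.00 without d12_f_245. Whether the sex difference changed between days was tested as an interaction, and no gene of the table passed an FDR under 0.05 in any of the 3 intervals (0% of all genes). At an unadjusted p under 0.05 the interaction picked 0 of 42 members from Day 8 to Day 10 (0.763% of all genes), 5 from Day 10 to Day 12 (18.9%) and 6 from Day 8 to Day 12 (21.8%). PDHA1 was among them from Day 8 to Day 12 (-0.63 ± 0.21, edgeR, FDR 0.131).

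The widest sex difference among the members was that of HK2 on Day 12, which is autosomal (chromosome 3, 68155656 to 68231187). The 5 female embryos had 2.46, 2.75, 8.23, 10.4 and 12.6 CPM and the 5 males 13.2, 13.97, 16.8, 19.95 and 25.2. All males lay above all females, but the log2 difference of -1.25 ± 0.41 was not called (edgeR, FDR 0.198). Its interaction from Day 10 to Day 12 was -1.46 ± 0.41 (edgeR, FDR 0.192). IDH3G, an X-linked subunit of NAD isocitrate dehydrogenase outside the 43 and picked after its values were seen, was called on Day 8, at 69.1 to 95.7 CPM in females and 49.8 to 63.9 in males (0.56 ± 0.10, edgeR, FDR 0.0281). Its sexes did not overlap on Days 10 and 12 either, at 0.57 ± 0.12 (edgeR, FDR 0.220) and 0.82 ± 0.22 (edgeR, FDR 0.198).

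**Figure D5:**
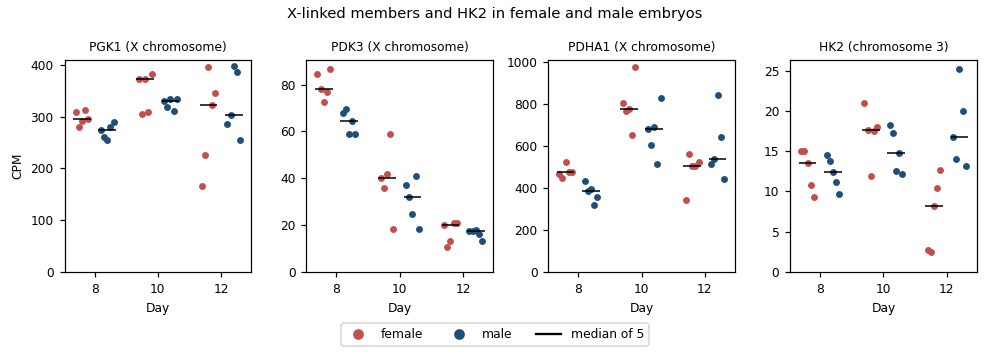
CPM of the 3 X-linked members and of HK2 in each female and male embryo on Days 8, 10 and 12 (points; lines are medians of 5). On Day 8 all females lie above all males in PDK3 and PDHA1, and on Day 12 the HK2 values of males, 13.2 to 25.2, lie above those of females, 2.46 to 12.6.

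Other genes of the same pathways were read from a list of 50, of which 41 were in the table. From Day 8 to Day 10, 5 were higher and 2 lower DEG, against 9.88% and 4.2% of all genes. From Day 10 to Day 12, 4 were higher and 7 lower (14.9% and 8.39% of all genes), and from Day 8 to Day 12, 10 and 6 (22% and 10.4%). The median log2 fold changes were 0.21, -0.24 and 0.18. Among those with the largest called changes were GAPDHS, ENO3, HKDC1 and PGM2. ENO3, the muscle enolase, had medians of 3.18, 5.04 and 66.6 CPM (3.92 ± 0.31 from Day 10 to Day 12, FDR 2.18e-12). HKDC1, a hexokinase-like gene, went from a median of 1.74 to 8.54 (FDR 0.000316), with 0.3001 to 31.7 CPM among Day 12 embryos. GAPDHS, the sperm form of GAPDH, peaked on Day 10 at 6.59 to 34.8 CPM, and 8 of 10 embryos had 3 counts or fewer on Day 12. PGM2, a phosphopentomutase, fell from a median of 857 to 208 and then 76.0 CPM (FDR 2.25e-13 and 6.50e-11).

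Hypoxia-inducible factor (HIF) is a transcription factor that raises many glycolytic genes when oxygen is low, and 21 of 22 listed HIF genes and targets outside glycolysis were in the table. Of these, 2 were higher and 1 lower DEG from Day 8 to Day 10 (9.88% and 4.2% of all genes), 6 and 1 from Day 10 to Day 12 (14.9% and 8.39%), and 7 and 1 from Day 8 to Day 12 (22% and 10.4%). Their median log2 fold changes were 0.03, 0.51 and 0.54. EPAS1, which encodes HIF2A, had 3.18 to 20.4 CPM on Day 8 (median 6.75), 18.4 to 72.5 on Day 10 (median 29.8) and 109.2 to 465.98 on Day 12 (median 391). The steps were 2.20 ± 0.31 (FDR 7.04e-07) and 3.19 ± 0.32 (FDR 4.39e-10). The other 4 with the largest called changes from Day 8 to Day 12 were DDIT4 (2.29), BHLHE40 (2.03), MXI1 (2.02) and NDRG1 (1.77), and the highest Day 12 values of DDIT4, BHLHE40 and NDRG1 were in d12_f_289.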

How the data were processed

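RNA of 30 single pig embryos was sequenced from stranded mRNA libraries as single-end reads. The authors trimmed reads with Trim Galore, took 3 bases off the 5′ end, mapped to Sscrofa11.1 (NCBI annotation) in Galaxy and filtered genes by CPM. Aligner, counter, strand setting and cutoff are not given in the sources used here. The deposited files hold raw counts by NCBI gene, 1 table of all embryos, used between days (13103 genes), and 1 per day, used between sexes.

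Symbols were matched to the RefSeq gene table of that assembly, which gave positions. Of 2 genes named LDHB, the one with the longer span was taken. Levels are CPM with TMM factors, not divided by length, so shares of a sum and ratios of genes are of counts and were read only between days, and log2 levels have a prior count of 2. Genes were tested with edgeR 4.0.16 under R 4.3.3 (quasi-likelihood F test, robust, Benjamini-Hochberg over all genes of the table), a procedure tested on simulated data. Days were compared in a fit of 3 groups, sexes within a day at an FDR below 0.05, and interactions in a fit of 6 groups. The SE is the log2 fold change over the square root of F. Isozyme ratios were compared by two-sided permutation in Python 3.11.15 with scipy 1.17.1, adjusted over 18 tests, and figures used matplotlib 3.10.9.

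Given in full are members that were DEG between days, X-linked members, members called between sexes and pairs whose ratio passed. Of the lists of other pathway genes and of HIF genes, the 5 with the largest called change were named, apart from items that are not reported here. The members and lists were chosen with earlier results of these data known. The alternatives were DESeq2 1.42.0, the robust GLM of edgeR that the study names, RLE factors or none, 2 low-count filters, a sex term, pairs of days fitted alone, each sex alone, testing against a log2 fold change of 1, changed prior counts, and leaving out embryos in turn.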

Additional observations from a re-analysis of the deposited data

Results flagged for a closer look

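In 5 of 75 groups of 10 embryos (25 genes on 3 days) the highest or the lowest embryo stood apart from the rest by Dixon's criterion, which chance meets in about 1 in 20 groups. On Day 12 the lowest embryo was d12_f_245, the smallest library, in 3 genes: 348 CPM for CS, 194 for IDH1 and 637 for MDH2, where the next embryos had at least 460.1, 368 and 828. On Day 10, HK1 was lowest in the male d10_m_435, at 92.5 CPM, against 125 or more in the others. LDHB was lowest in the Day 10 female d10_f_336, at 416 CPM, against 504.4 or more.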

How the results depend on the processing

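No paired analysis was possible because the embryo numbers are shared by no 2 groups. The number of members called DEG fell from 7 to 2 between Days 8 and 10, and from 11 to 5 between Days 10 and 12, when a log2 fold change of 1 was tested against, and stayed within 1.5 times in the other alternatives. Leaving out each embryo in turn gave 5 to 7, 10 to 12 and, between Days 8 and 12, 10 to 13. Between the sexes on Day 8 the number was 0, and 2 with DESeq2 and the robust GLM, and 0 to 1 when each embryo was left out. For these alternatives the matching share of all genes is not given here. The difference of PGK1 between the sexes on Day 12 ran from -0.26 to 0.0013 when each embryo was left out, and the value without d12_f_245 had the opposite sign. The 28 DEG calls of members between days kept their direction in each alternative run, while some were lost, by the fold or by the FDR: with library size alone IDH3A, MDH1, PDK1, PDK3 and SUCLG2, with the robust GLM ALDOA and SUCLG2, and in 1 sex at a time ALDOA, CS, HK1, IDH3A, LDHA, PC, PDK3 and SUCLG2. In females alone the share of higher genes among all DEG was 54.3% between Days 10 and 12 and 57.8% between Days 8 and 12, against 64.0% and 67.8% in all embryos, and with library size alone 55.9% between Days 8 and 10, against 70.2%. Of the 12 isozyme ratios that passed, 2 missed the threshold in females alone (HK2 over HK1 from Day 8 to Day 10, and PDK3 over PDK1 from Day 10 to Day 12) and 3 in males alone (these and MDH1 over MDH2 from Day 10 to Day 12). Low counts limit PFKP and ALDOC most.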

Other observations

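The short gene of chromosome 2 that shares the symbol LDHB had few counts in most embryos and many in a few. It had 17 to 40 counts in the 10 embryos of Day 8. On Day 10 the female d10_f_336, which had the lowest LDHB of its day, had 272 counts, the male d10_m_321 had 80, and the other 8 embryos had 12 to 17. On Day 12 the male d12_m_275 had 96 counts and the others 4 to 52. Which reads gave these counts was not tested.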
